A study of Mus musculus with 8 samples.

Results

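Glycolysis and glucose use were followed through 31 genes in tumor epithelium with and without Yap1. The 31 genes were picked by symbol, as genes that bring glucose or galactose into the cell, carry it to pyruvate and lactate, pass pyruvate into the mitochondrion, or lead sugar into the pentose phosphate path and gluconeogenesis. All 31 were found among the 27179 entries of the count table. Cells carrying the epithelial surface protein EpCAM had been sorted from antral gastric tumors, with 1 RNA library per mouse, 4 from Yap1KO and 4 from Yap1WT. All 8 mice were homozygous for the Y757F mutation of the gp130 receptor (Gp130FF), which leads to spontaneous gastric tumors, and per the study both groups carried Tff1:CreERT2 and Yap1 fl/fl. In Yap1KO mice tamoxifen had switched on the Cre recombinase, which the Tff1 promoter drives in surface (foveolar) cells. From Tff1 levels in Gp130FF tumors the study infers that deletion also reached tumor epithelial, mucous neck, parietal, chief, neuroendocrine and tuft cells. Cells without an active Tff1 promoter keep Yap1. The labels give an age of 18 wk and 3 days after tamoxifen for all 8 mice, whereas the study's methods describe vehicle for Yap1WT and its results give a different age.

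Glycolysis splits glucose into pyruvate through a chain of cytosolic enzymes, and lactate dehydrogenase turns pyruvate into lactate, which leaves the cell through monocarboxylate transporters. Pyruvate can instead enter the mitochondrion, where pyruvate dehydrogenase turns it into acetyl-CoA and pyruvate dehydrogenase kinases hold that enzyme back. Many steps have more than 1 gene, and hypoxia-inducible factor (HIF) is known to raise many of them in tumors. Yap1 is a co-activator that acts through TEAD transcription factors.

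Total counts were 18229945 to 74278015 in Yap1KO and 27607755 to 77483047 in Yap1WT. The targeted gene Yap1 had 21.3 to 29.7 CPM (counts relative to library size, with TMM factors) in Yap1KO and 64.2 to 78.0 CPM in Yap1WT, a log2 fold change of -1.51 ± 0.13 (SE, edgeR adjusted p = 0.000208, n = 4 each). Yap1KO replicate 4, the library with the fewest counts, stood apart on the first principal component, at 89.8 against -12.6 to -5.65 in the other Yap1KO libraries and -20.3 to -12.7 in Yap1WT. Epcam itself was at 1524 to 1759 CPM in Yap1KO and 938 to 1036 CPM in Yap1WT. The 4 epithelial markers, Epcam among them, had 2 positive and 2 negative log2 fold changes, and edgeR called 1 higher and DESeq2 2. Their sums overlapped, at 6313 to 7989 CPM in Yap1KO and 5968 to 7246 CPM in Yap1WT. Markers of several cell types also differed. Of 7 foveolar markers tested 3 were called lower by edgeR and 5 by DESeq2, and 6 were lower at an unadjusted p under 0.05. All 7 had a negative log2 fold change, with a median of -0.95. The list summed to 21804 to 37792 CPM in Yap1KO against 31272 to 63438 CPM in Yap1WT. For mucous neck cells and metaplasia, 4 of 6 markers were called higher by edgeR and 6 by DESeq2, and all 6 had an unadjusted p under 0.05. Their sum came to 62918 to 82528 CPM in Yap1KO against 37060 to 61407 CPM in Yap1WT. Of 5 endothelial markers 0 were called by edgeR, and 4 had an unadjusted p under 0.05. DESeq2 called 2 higher, limma-voom 4 and limma-trend 2. All 5 had a positive log2 fold change, with a median of 1.25. They summed to 387 to 809 CPM in Yap1KO against 120 to 457.3 CPM in Yap1WT. Of 2 parietal markers tested 0 were called by edgeR (both were lower at an unadjusted p under 0.05, and DESeq2 called 1), and the list summed to 7.71 to 51.3 CPM in Yap1KO against 32.3 to 221 CPM in Yap1WT. Of 4 enteroendocrine markers 0 were called by edgeR or DESeq2 (3 were higher at an unadjusted p under 0.05), with sums of 363 to 932 CPM in Yap1KO against 321 to 531 CPM in Yap1WT. Leukocyte markers summed to 2.14 to 5.97 CPM in Yap1KO and 6.73 to 13.4 CPM in Yap1WT, with Cd3e, Cd79a, S100a8 and Nkg7 at 0 in some libraries of each group. Fibroblast and smooth muscle markers ranged widely in both groups, summing to 322 to 1060 CPM in Yap1KO and 107 to 768 CPM in Yap1WT. The part of these shifts in the results below was not tested, and in bulk RNA fewer cells of a type and less RNA per cell cannot be told apart.

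Between the groups, 3 of the 31 glucose-use genes were called different, beside 5.87% of all genes tested, and a gene that was not called may still differ. Galm, galactose mutarotase, and Slc16a1, the lactate and pyruvate transporter MCT1, were lower in Yap1KO, and Bpgm, bisphosphoglycerate mutase, was higher. These 3 were the members called at an adjusted p under 0.05 (edgeR quasi-likelihood test over 13495 genes with more than 0.5 CPM in at least 6 libraries, a filter that all 31 passed). That is 2 of 31 lower, beside 2.34% of all genes tested, and 1 of 31 higher, beside 3.53%. In either direction 3 of 31 stood beside 5.87% of all genes, and nothing particular to these genes was read from that count. The log2 fold change lay within 0.5 of 0 for 28 of 31 members, and the median was -0.09, beside -0.01 over all genes. At an unadjusted p under 0.05 there were 8 lower and 2 higher members, beside 8.97% and 11.5% of all genes (20.4% in either direction). The CPM of the groups did not overlap for 7 members that were lower (Galm, Pfkm, Pfkfb2, Slc16a1, Pdk1, Pdha1 and Tkt) and 1 that was higher (Bpgm), beside 6.01% and 7.19% of all genes (13.2% in either direction). Without Yap1KO replicate 4 the fit called 1 member lower and 0 higher. Over all genes that fit called 195 lower and 270 higher, against 316 and 476 with all 8 libraries. Leaving out any 1 library gave 1 to 2 members lower and 0 higher, so this is not particular to Yap1KO replicate 4. The 31 members took 0.536% to 0.552% of the counts of a Yap1KO library and 0.513% to 0.619% of those of a Yap1WT library.

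**Figure D1:**
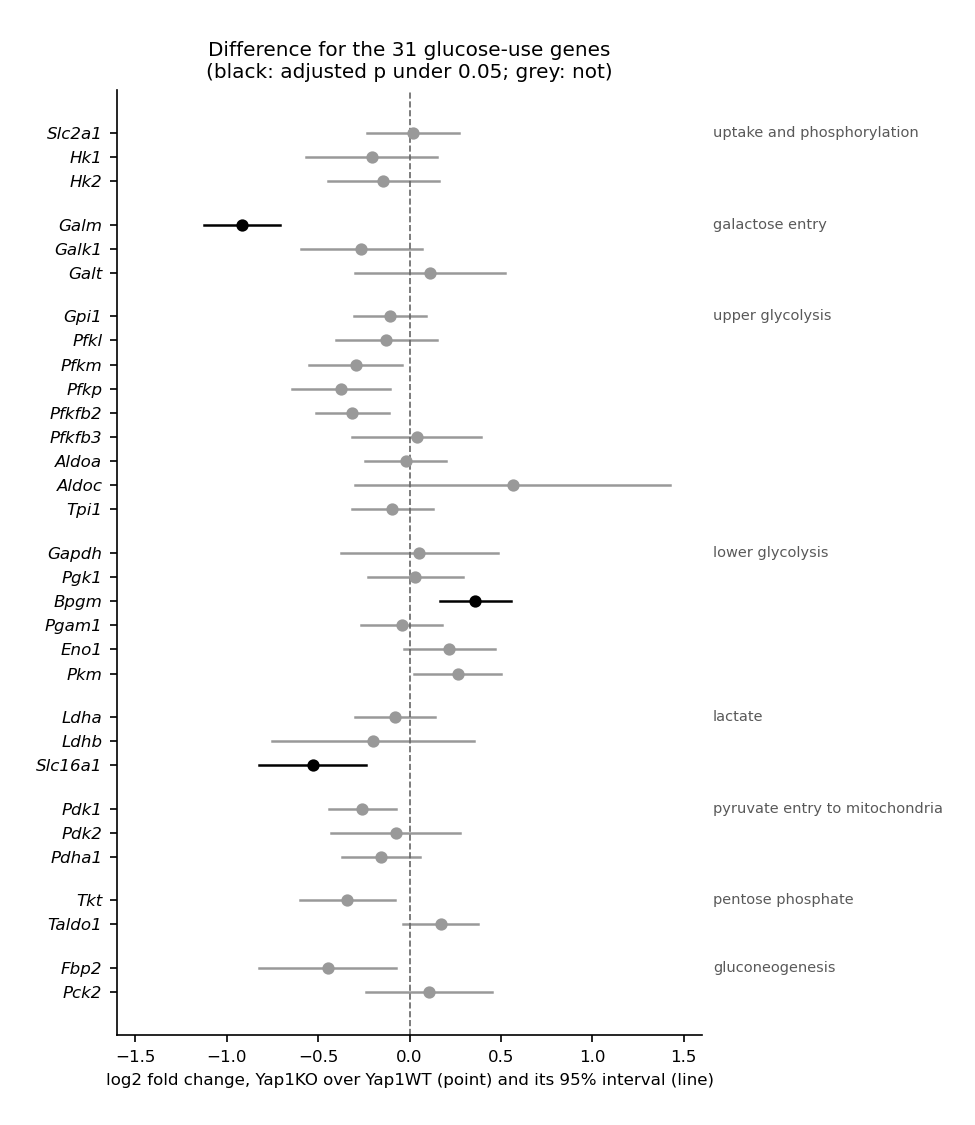
Log2 fold change of Yap1KO over Yap1WT for the 31 genes, grouped by role, with the 95% interval of the edgeR fit as a line; black marks an adjusted p under 0.05. Galm, at -0.92, lies farthest from 0 of the 31, Slc16a1 and Bpgm are the other called members, and Aldoc has the widest interval (-0.30 to 1.43).

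The stretch around the start site is shown from RefSeq (GRCm38.p6) for the called members Slc16a1 and Bpgm and for Ldha, the member with the most HIF matches. Capitals mark the core of the HIF motif (ACGTG or GCGTG, and CACGT or CACGC on the other strand, overlapping matches counted each). The TEAD motif (GGAATG, or CATTCC on the other strand) was searched as well and is in none of the 3 windows. All 3 lie on the plus strand, Slc16a1 at chr3:104638414-104638713, Bpgm at chr6:34476106-34476405 and Ldha at chr7:46845554-46845853.
Slc16a1: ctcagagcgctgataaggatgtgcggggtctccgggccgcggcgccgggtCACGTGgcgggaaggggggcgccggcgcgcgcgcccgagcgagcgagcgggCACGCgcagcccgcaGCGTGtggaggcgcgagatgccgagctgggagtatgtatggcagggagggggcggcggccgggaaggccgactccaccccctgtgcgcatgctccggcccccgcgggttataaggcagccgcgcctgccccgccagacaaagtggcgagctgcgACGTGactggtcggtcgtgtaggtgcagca
Bpgm: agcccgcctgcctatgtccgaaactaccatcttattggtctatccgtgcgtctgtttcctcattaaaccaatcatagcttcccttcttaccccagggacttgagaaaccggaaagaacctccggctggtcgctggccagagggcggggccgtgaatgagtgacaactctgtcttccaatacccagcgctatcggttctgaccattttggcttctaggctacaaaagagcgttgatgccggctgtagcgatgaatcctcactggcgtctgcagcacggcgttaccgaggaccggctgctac
Ldha: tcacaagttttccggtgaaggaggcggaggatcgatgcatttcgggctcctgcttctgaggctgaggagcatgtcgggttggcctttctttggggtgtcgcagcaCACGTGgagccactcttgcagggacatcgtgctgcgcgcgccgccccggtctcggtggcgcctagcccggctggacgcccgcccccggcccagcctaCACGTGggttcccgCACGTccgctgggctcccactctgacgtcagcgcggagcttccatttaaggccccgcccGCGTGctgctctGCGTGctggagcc
The Slc16a1 window holds 5 matches of the HIF core, the Bpgm window 0 and the Ldha window 7. RefSeq windows were matched for 30 of 31 members, 47 windows in all, and not for Galm. A HIF core stood in 37 of these 47 windows (78.7%), beside 43.8% of 32851 windows of 300 bases over all genes, and in at least 1 window of 27 members, the others being Bpgm, Gpi1 and Tpi1. A TEAD motif stood in 7 of 47 windows (14.9%), beside 14.7% of all windows, and the members with one were Aldoa, Aldoc, Eno1, Galk1, Galt and Pdk2. Neither Slc16a1 nor Bpgm is among these 6.

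Read per gene length, the members covered a wide range. On the deposited log2 RPKM scale (reads per unit of gene length), averaged over 8 libraries, Aldoa (aldolase A) led at 8.57, then Ldha (lactate dehydrogenase A) at 8.42 and Pkm (pyruvate kinase) at 8.06. Taldo1 (transaldolase) and Tpi1 (triosephosphate isomerase) came next, at 7.97 and 7.87 log2 RPKM. The gaps from Aldoa to Ldha and from Ldha to Pkm were wider than either gene's SD over the libraries, while those from Pkm to Taldo1 and from Taldo1 to Tpi1 were not. These 5 genes each stood above at least 98.4% of the genes in the deposited log2 values. The lowest members were Pfkm, the muscle phosphofructokinase, at 2.91 log2 RPKM, and Pfkfb2 and Pfkfb3, which set the level of the activator of that enzyme, at 2.65 and 2.56 log2 RPKM. Pfkfb2 and Pfkfb3 were not separated beyond their spread. Gapdh was only 27th of 31, at 3.38 log2 RPKM. Of the 80-base windows along the Gapdh transcript, 79.9% also occur exactly in transcripts of other genes, 109 of them, so its counts are uncertain. The same share was 67.4% for Pgk1, 64.1% for Eno1, 40.4% for Pgam1 and 24.2% for Pfkfb2, and their counts are uncertain too. It was 0% for Galm, Slc16a1 and Bpgm.

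**Figure D2:**
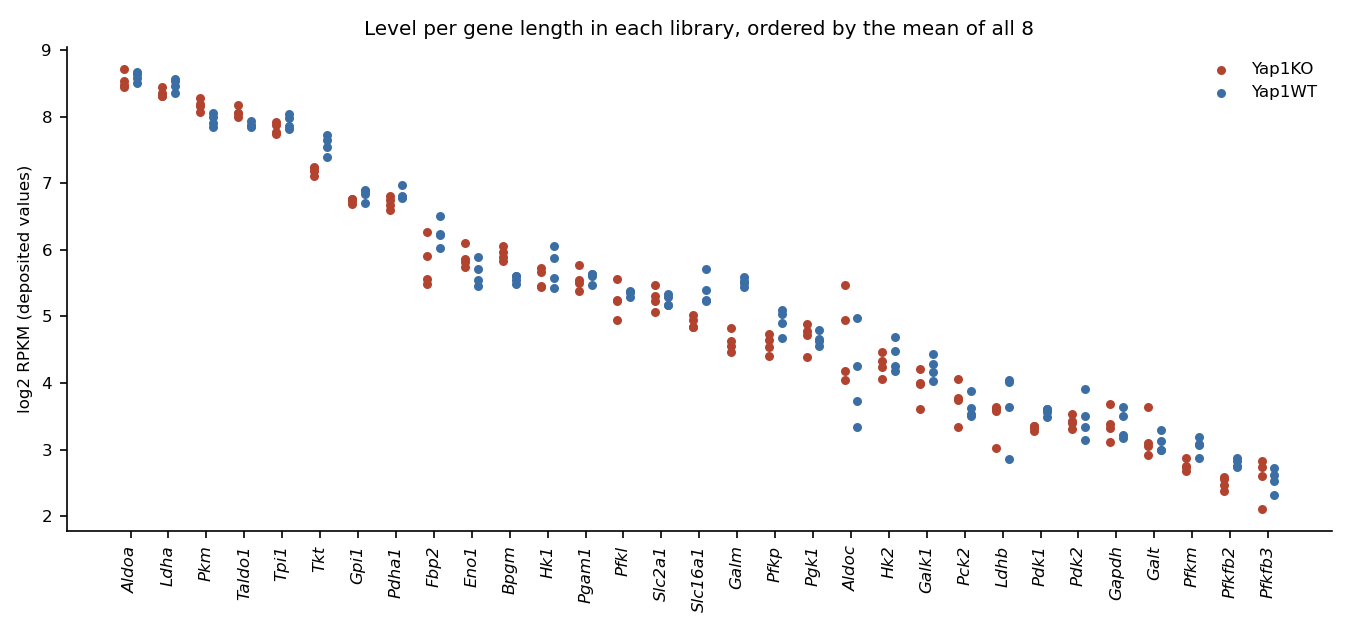
Deposited log2 RPKM of the 31 genes in each library, with Yap1KO left of Yap1WT for each gene and genes ordered by their mean over 8 libraries. The order runs from 8.57 (Aldoa) down to 2.56 (Pfkfb3).

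No difference was called in glucose uptake and its trapping in the cell (0 of 3 members, 0 with an unadjusted p under 0.05, and 0 by DESeq2 or limma). Slc2a1 encodes GLUT1, the main glucose transporter of many tumors. It had 114, 83.0, 93.9 and 102 CPM in Yap1KO libraries and 90.4, 91.0, 102 and 104 CPM in Yap1WT libraries. The groups overlapped throughout, with a log2 fold change of 0.02 and a 95% interval of -0.23 to 0.27. The hexokinases, which phosphorylate glucose, were likewise not called. Hk1 averaged 210.2 ± 26.8 CPM in Yap1KO and 243 ± 53.3 CPM in Yap1WT (SD, n = 4 each). The mice were numbered in 2 series, the first holding replicates 1 and 2 of each group and the second replicates 3 and 4, which the labels do not call batches. Within the first series the log2 fold change of Hk1 was 0.07, and within the second it was -0.43. Hk2 averaged 105 ± 15.0 CPM in Yap1KO and 116 ± 17.1 CPM in Yap1WT. Of the 7 other hexose transporters tested, 1 was higher and 1 lower. Slc2a6, the transporter GLUT6, had 10.3, 5.78, 8.61 and 9.17 CPM in Yap1KO against 2.51, 1.93, 2.52 and 4.65 CPM in Yap1WT. The groups did not overlap, and the log2 fold change was 1.55 ± 0.32 (SE, edgeR adjusted p = 0.0202). Slc2a10 (GLUT10) was the one that was lower, at 12.6 ± 4.50 CPM in Yap1KO against 27.9 ± 8.35 CPM in Yap1WT (log2 fold change -1.16, edgeR adjusted p = 0.0440), a call that limma-trend on the deposited log2 values did not make.

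Galactose enters glycolysis through the Leloir path, in which Galm prepares the sugar ring, Galk1 phosphorylates it and Galt exchanges it with UDP-glucose. Galm (chr17:80127458-80185032) had 52.0, 60.6, 48.6 and 55.7 CPM in Yap1KO and 106, 100.4, 106 and 97.8 CPM in Yap1WT. Every Yap1KO library lay well below every Yap1WT library, and the spread within each group was small. The log2 fold change was -0.92 ± 0.09 (SE), that is 1.89-fold lower, with an edgeR adjusted p = 0.000516. It was -0.88 within the first series and -0.96 within the second. It stayed called without any 1 library, with adjusted p of 0.000385 to 0.00367. The study had displayed Galm from these same libraries, so its direction here is not independent evidence. The 7 foveolar markers tested all had a negative log2 fold change as well, with a median of -0.95, and edgeR called 3 of them. The part of that shift in the Galm difference was not tested.

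The next enzymes of that path were not called. Galk1, galactokinase, averaged 23.3 ± 3.93 CPM in Yap1KO and 28.0 ± 3.31 CPM in Yap1WT (edgeR adjusted p = 0.367). Galt, galactose-1-phosphate uridylyltransferase, averaged 18.2 ± 4.38 CPM in Yap1KO and 16.8 ± 2.23 CPM in Yap1WT, with a 95% interval of -0.30 to 0.52 for its log2 fold change. Of 8 other genes of galactose and UDP-sugar metabolism, 1 was lower and 0 higher by edgeR. At an unadjusted p under 0.05 there were 3 higher and 2 lower. The log2 fold change was positive for 4 and negative for 4, with a median of 0.03. The called gene was Ugp2, which makes UDP-glucose. It had 133, 159, 162 and 119 CPM in Yap1KO against 199, 213, 231 and 180.4 CPM in Yap1WT, with no overlap (log2 fold change -0.52 ± 0.13 SE, edgeR adjusted p = 0.0393), a call that limma did not make.

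**Figure D3:**
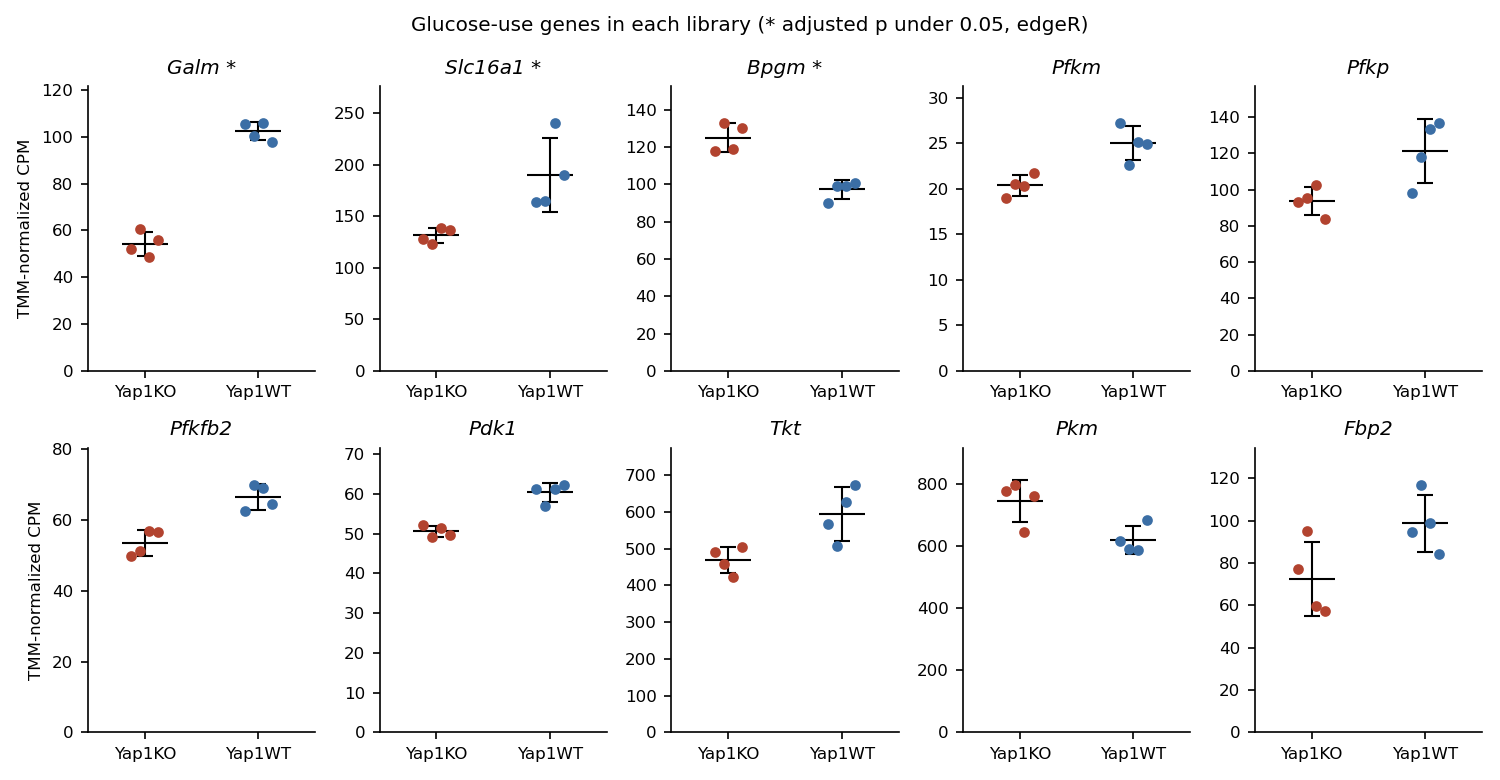
TMM-normalized CPM of the 10 members with an unadjusted p under 0.05, Yap1KO left of Yap1WT, with 1 point per library and the mean ± SD; an asterisk marks an adjusted p under 0.05. The groups are fully apart for Galm (48.6 to 60.6 CPM in Yap1KO, 97.8 to 106 CPM in Yap1WT) and nearly touch for Tkt (up to 504 CPM in Yap1KO, from 506 CPM in Yap1WT).

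In upper glycolysis, 0 of 9 members were called by edgeR, and 3 had an unadjusted p under 0.05, all of them lower in Yap1KO. DESeq2 called Pfkfb2 and Pfkp, with adjusted p of 0.0363 and 0.0488, and limma called 0. Phosphofructokinase commits the sugar to glycolysis, and its activator is made and removed by the Pfkfb enzymes. Pfkfb2 had 49.7, 51.1, 56.8 and 56.6 CPM in Yap1KO and 62.5, 69.9, 69.1 and 64.4 CPM in Yap1WT. The groups did not overlap, but the log2 fold change of -0.31 ± 0.09 (SE) had an edgeR adjusted p of 0.0780. Pfkp, the platelet form of phosphofructokinase, had 93.2, 95.3, 103 and 83.9 CPM in Yap1KO and 98.1, 118, 133 and 137 CPM in Yap1WT. Yap1WT replicate 1 lay among the Yap1KO values, and the log2 fold change of -0.37 ± 0.12 (SE) had an edgeR adjusted p of 0.108. Pfkm, the muscle form, had 19.0, 20.5, 20.3 and 21.8 CPM in Yap1KO and 27.2, 22.6, 25.2 and 24.9 CPM in Yap1WT. It did not overlap between the groups and was not called (log2 fold change -0.29, edgeR adjusted p = 0.172). The skeletal muscle markers Ckm and Mb were below 0.6 CPM in every library, and Myh4 was at 0 in all 4 Yap1KO libraries. The 4 markers of that list, Acta1 being the other, summed to 2.60 to 7.99 CPM in Yap1KO and 1.29 to 4.36 CPM in Yap1WT. The 1 marker of that list that passed the filter had a log2 fold change of 0.93 and was not called. The liver form Pfkl averaged 139 ± 23.5 CPM in Yap1KO and 152 ± 6.33 CPM in Yap1WT, and Pfkfb3 averaged 31.3 ± 6.04 CPM in Yap1KO and 30.5 ± 3.59 CPM in Yap1WT.

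The remaining enzymes of upper glycolysis were not called. Gpi1, glucose-6-phosphate isomerase, averaged 298 ± 11.1 CPM in Yap1KO and 322 ± 19.0 CPM in Yap1WT. Aldoa averaged 685 ± 52.1 CPM in Yap1KO and 695 ± 36.5 CPM in Yap1WT, and Tpi1 averaged 359.3 ± 16.9 CPM in Yap1KO and 383 ± 36.0 CPM in Yap1WT. For these 3 the 95% interval of the log2 fold change lay between -0.32 and 0.20. Aldoc, the brain form of aldolase, varied most of the 31. It had 52.0, 71.9, 27.9 and 30.5 CPM in Yap1KO and 31.6, 53.2, 16.4 and 21.9 CPM in Yap1WT. In both groups replicates 1 and 2, of the first series of mouse numbers, were above replicates 3 and 4. Its log2 fold change was 0.57 ± 0.39 (SE, edgeR adjusted p = 0.468), 0.55 within the first series and 0.61 within the second.

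**Figure D4:**
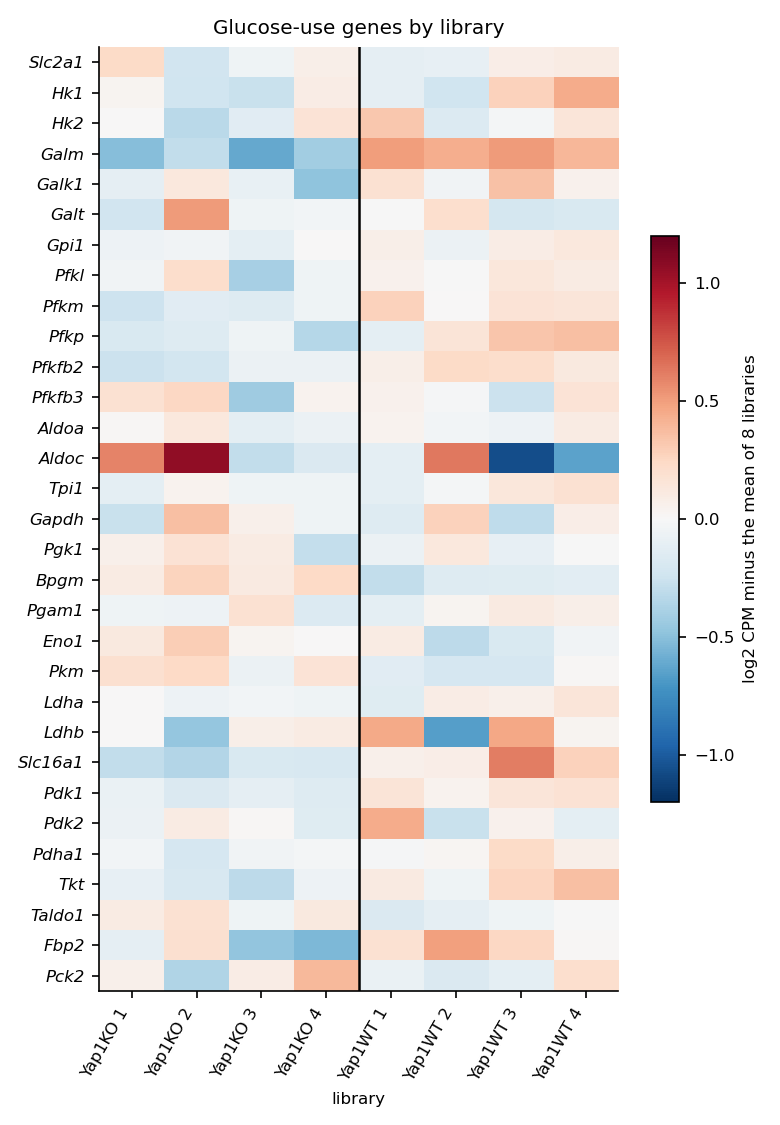
Log2 CPM of each of the 31 genes in each library minus its mean over the 8 libraries, with the Yap1KO libraries left of the line and the Yap1WT libraries right of it. Galm separates the groups in all 8 libraries, whereas Aldoc, which spans 2.13 on this log2 scale, separates libraries 1 and 2 from 3 and 4 in each group.

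In lower glycolysis 1 of 6 members was higher and 0 were lower. Bpgm makes 2,3-bisphosphoglycerate, best known as the compound that lowers the oxygen affinity of hemoglobin in red cells. Bpgm (chr6:34476356-34505136) had 118, 133, 119 and 130.3 CPM in Yap1KO and 90.0, 99.0, 99.3 and 101 CPM in Yap1WT. The groups did not overlap, although the difference was modest. The log2 fold change was 0.36 ± 0.09 (SE), that is 1.28-fold higher, with an edgeR adjusted p = 0.0393. It was 0.40 within the first series and 0.32 within the second. The call was lost when any 1 of the 8 libraries was left out (adjusted p 0.0569 to 0.104). The 5 erythroid markers in the table summed to 1.75 to 24.8 CPM in Yap1KO and 5.91 to 62.7 CPM in Yap1WT, and none was called.

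Pkm, which makes pyruvate, had 776, 797, 645 and 759.9 CPM in Yap1KO and 617, 589.7, 588 and 684 CPM in Yap1WT. Yap1KO replicate 3 lay within the Yap1WT values, and the log2 fold change of 0.26 ± 0.11 (SE) was not called (edgeR adjusted p = 0.194). Eno1, enolase 1, averaged 103 ± 9.61 CPM in Yap1KO and 88.7 ± 10.9 CPM in Yap1WT (edgeR adjusted p = 0.320). Gapdh (glyceraldehyde-3-phosphate dehydrogenase), Pgk1 (phosphoglycerate kinase) and Pgam1 (phosphoglycerate mutase) had log2 fold changes of 0.05, 0.03 and -0.04. Of 15 further isoenzymes and partners of glycolysis and lactate transport tested, 0 were called by edgeR, while at an unadjusted p under 0.05 there were 2 higher and 2 lower, and DESeq2 called 2, both higher, and the 2 limma fits 0. The most abundant were Bsg, the chaperone of the monocarboxylate transporters, with a log2 fold change of -0.14, and Ldhd, D-lactate dehydrogenase, with -0.02.

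Among the lactate genes the transporter was lower in Yap1KO, and neither lactate dehydrogenase gene was called. Slc16a1 (chr3:104638664-104658462) had 128, 123, 138 and 137 CPM in Yap1KO and 164, 165, 241 and 190.0 CPM in Yap1WT. The Yap1KO libraries lay close together and below all Yap1WT libraries, of which replicate 3 was the highest. The log2 fold change was -0.53 ± 0.13 (SE), that is 1.44-fold lower, with an edgeR adjusted p = 0.0433. It was -0.40 within the first series and -0.64 within the second. The call was lost without any 1 of the Yap1KO libraries or without Yap1WT replicate 3 or 4 (adjusted p 0.0759 to 0.106).

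Ldha had 655, 624, 636 and 629 CPM in Yap1KO and 589, 694, 682 and 719 CPM in Yap1WT, so that the Yap1KO values lay inside the range of Yap1WT. Its log2 fold change was -0.08, with a 95% interval of -0.30 to 0.14. Ldhb, the heart form, averaged 14.4 ± 2.42 CPM in Yap1KO and 16.5 ± 5.33 CPM in Yap1WT. The transporter Slc16a3 (MCT4, known for lactate export), named after its values were seen, had 32.1, 24.9, 12.2 and 27.9 CPM in Yap1KO against 14.0, 13.3, 7.30 and 10.1 CPM in Yap1WT. Yap1KO replicate 3 fell among the Yap1WT values, and the log2 fold change of 1.12 ± 0.30 (SE) was not called by edgeR (adjusted p = 0.0618) or limma-voom (0.165), while DESeq2 called it (0.00419).

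Of the genes that govern pyruvate entry into the mitochondrion, 0 of 3 were called by edgeR, DESeq2 or limma, and 1 had an unadjusted p under 0.05. Pdk1, a kinase that inactivates pyruvate dehydrogenase, had 52.2, 49.1, 51.4 and 49.6 CPM in Yap1KO and 61.4, 56.9, 61.2 and 62.3 CPM in Yap1WT. The groups were narrow and did not overlap, yet the log2 fold change of -0.26 ± 0.08 (SE) had an edgeR adjusted p of 0.103. Pdha1, the catalytic alpha subunit of the enzyme, had 290.2, 258, 288 and 292 CPM in Yap1KO and 295, 301, 348 and 313 CPM in Yap1WT. It did not overlap either, by a margin smaller than the spread within the groups (log2 fold change -0.16, edgeR adjusted p = 0.407). Pdk2 averaged 23.9 ± 1.76 CPM in Yap1KO and 25.2 ± 5.58 CPM in Yap1WT. Of 10 other genes of the pyruvate dehydrogenase complex and the mitochondrial pyruvate carrier, 0 were called by edgeR, DESeq2 or limma and 1 had an unadjusted p under 0.05, in the lower direction. Their 2 most abundant, the subunits Dld and Dlat, had log2 fold changes of -0.22 and -0.28.

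The pentose phosphate path makes NADPH and ribose, and its non-oxidative enzymes Tkt (transketolase) and Taldo1 return carbon to glycolysis. Tkt had 491, 459, 422 and 504 CPM in Yap1KO and 565, 506, 627 and 674 CPM in Yap1WT. The highest Yap1KO library and the lowest Yap1WT library were almost equal, and the log2 fold change of -0.34 ± 0.12 (SE) was not called by edgeR (adjusted p = 0.129). DESeq2, limma-voom and limma-trend called it, with adjusted p of 0.0449, 0.0330 and 0.0391. Taldo1 averaged 337 ± 22.5 CPM in Yap1KO and 299.6 ± 14.6 CPM in Yap1WT (edgeR adjusted p = 0.342). Of 8 other genes of this path, 0 were called by edgeR, DESeq2 or limma, and 0 had an unadjusted p under 0.05. The oxidative enzymes Pgd and G6pdx had log2 fold changes of -0.24 and -0.15.

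Gluconeogenesis runs the chain backwards. Fbp2, the fructose-bisphosphatase best known from muscle, was the ninth most abundant member per length, at 6.03 log2 RPKM. It had 77.1, 95.1, 59.9 and 57.4 CPM in Yap1KO and 94.5, 117, 99.0 and 84.4 CPM in Yap1WT. Yap1KO replicate 2 overlapped Yap1WT, and the log2 fold change of -0.45 ± 0.17 (SE) was not called (edgeR adjusted p = 0.163), but it was without that library (-0.61, edgeR adjusted p = 0.0431) and with a term for the 2 mouse series (edgeR adjusted p = 0.0499). Pck2, the mitochondrial phosphoenolpyruvate carboxykinase, averaged 45.3 ± 9.33 CPM in Yap1KO and 42.1 ± 5.10 CPM in Yap1WT. Of 4 other genes tested, 0 were called by edgeR, DESeq2 or limma, with 1 lower at an unadjusted p under 0.05. The 2 most abundant of them were Pcx (pyruvate carboxylase) and G6pc3 (a glucose-6-phosphatase), with log2 fold changes of -0.31 and 0.08.

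Where 2 members serve the same step, their log2 ratio within a library gives the balance of forms per length. The ratio of Ldha to Ldhb was 4.89 ± 0.30 in Yap1KO and 4.84 ± 0.63 in Yap1WT (log2, SD, n = 4 each), so Ldha stood 29.7-fold above Ldhb in Yap1KO and 28.6-fold in Yap1WT. Hk2 to Hk1 was -1.30 ± 0.09 in Yap1KO and -1.33 ± 0.34 in Yap1WT. Aldoc to Aldoa was -3.88 ± 0.59 in Yap1KO and -4.52 ± 0.69 in Yap1WT, the widest difference of the 7 ratios, at 0.64. Pfkfb3 to Pfkfb2 was 0.07 ± 0.40 in Yap1KO and -0.26 ± 0.22 in Yap1WT. Pfkp to Pfkl, Pfkm to Pfkl and Pdk1 to Pdk2 differed by -0.24, -0.19 and -0.18. By the exact two-sided permutation test, which cannot go below 0.0286 here, the unadjusted p ran from 0.171 to 0.914 over the 7 ratios, and the lowest adjusted p was 0.440. None of the 7 differences passed this test. After adjustment over 7 ratios, a single ratio at that floor would still not come under 0.05. No conclusion on any single ratio is therefore drawn from this test, which does not take the 2 mouse series into account. Within the first series Aldoc to Aldoa was -3.53 and -3.25 in Yap1KO against -4.41 and -3.60 in Yap1WT, and within the second it was -4.50 and -4.26 in Yap1KO against -5.16 and -4.92 in Yap1WT. The groups did not overlap within either series, which with 2 mice a group was not tested. This ratio had the widest difference of the 7, so no conclusion is drawn from its split by series. Hk2 to Hk1 did not overlap within either series either, but was lower in Yap1KO in the first and higher in the second.

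**Figure D5:**
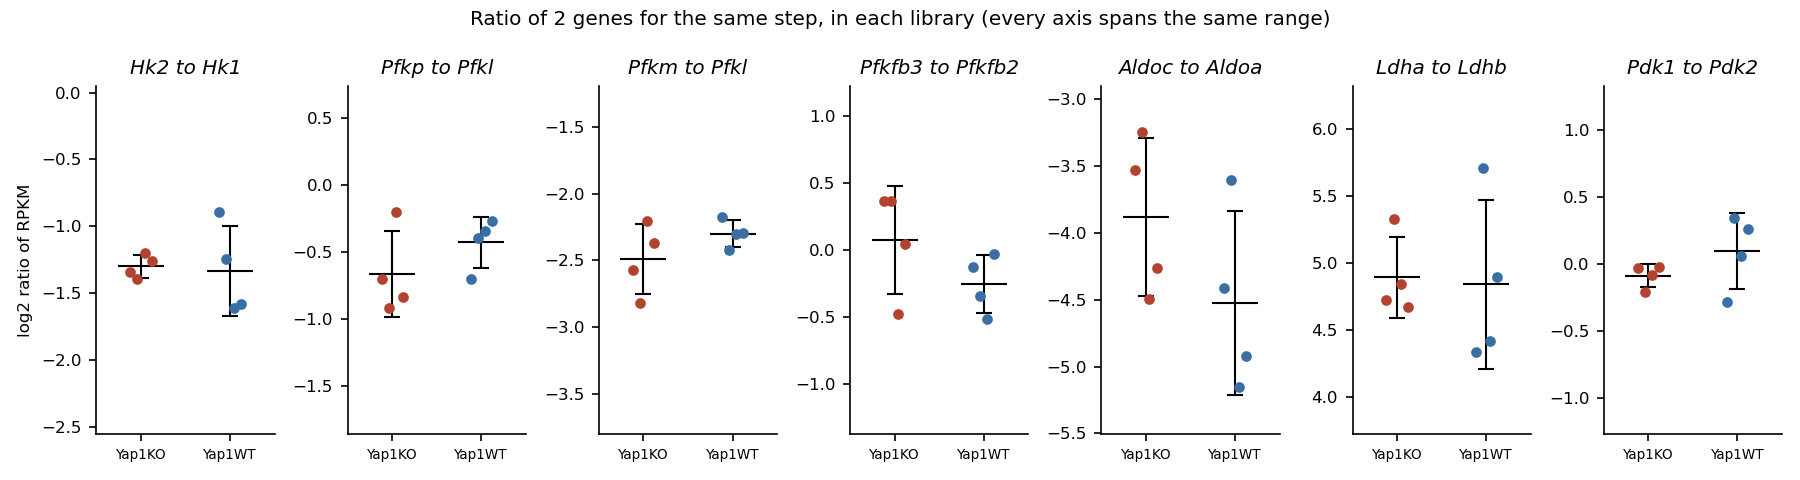
Log2 ratio of the deposited RPKM of 2 members for the same step in each library, with Yap1KO left of Yap1WT, the mean ± SD in black, and the same span on every axis. The groups overlap in all 7 panels, and Aldoc to Aldoa (-3.88 in Yap1KO, -4.52 in Yap1WT) shows the widest difference.

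Among sugar genes outside the 31, 2 of 66 tested were higher and 4 were lower, with a median log2 fold change of 0.04. Besides the transporters and Ugp2, they belonged to glycogen and polyol metabolism. Pygb, the brain form of glycogen phosphorylase, was 1 of 9 glycogen genes tested and the one that was called. It had 147, 130.3, 157 and 171 CPM in Yap1KO against 260.1, 227, 347 and 321 CPM in Yap1WT, with no overlap (log2 fold change -0.93 ± 0.15 SE, edgeR adjusted p = 0.00501). Akr1b8, an aldo-keto reductase, was lower at 127 ± 16.0 CPM in Yap1KO against 217 ± 28.4 CPM in Yap1WT (log2 fold change -0.77, edgeR adjusted p = 0.00630). Sord, which turns sorbitol into fructose, was higher at 133 ± 16.8 CPM in Yap1KO against 90.3 ± 11.7 CPM in Yap1WT (log2 fold change 0.56, edgeR adjusted p = 0.0302). The Pygb and Akr1b8 calls held without any 1 library. Those of Slc2a6, Slc2a10, Ugp2 and Sord held in 4, 2, 3 and 3 of the 8 fits that leave 1 library out, with adjusted p reaching 0.0726, 0.138, 0.123 and 0.0879. The libraries whose removal ended the call were Yap1KO 1 and 4 and Yap1WT 1 and 3 for Slc2a6, Yap1KO 1, 2 and 3 and Yap1WT 1, 3 and 4 for Slc2a10, Yap1KO 1 and 4 and Yap1WT 1, 2 and 3 for Ugp2, and Yap1KO 1, 2 and 3 and Yap1WT 1 and 3 for Sord.

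Of 12 HIF targets outside glycolysis edgeR called 1 higher and 0 lower. At an unadjusted p under 0.05 there were 2 higher and 1 lower. The log2 fold change was positive for 11 and negative for 1, with a median of 0.23. The called gene was Ddit4, an inhibitor of mTORC1 that stress of several kinds induces. It had 262, 272, 251 and 214 CPM in Yap1KO and 116, 117, 78.5 and 66.5 CPM in Yap1WT, with no overlap (log2 fold change 1.40 ± 0.19 SE, edgeR adjusted p = 0.00188). Of 12 regulators of glycolysis 1 was lower and 0 higher by edgeR, and that 1 was Yap1 itself. Another 3 had an unadjusted p under 0.05 in the higher direction. Of these Wwtr1, which encodes the Yap1 paralog TAZ and was named after its values were seen, had a log2 fold change of 0.96 and was called by DESeq2 (adjusted p = 0.00729) and limma-voom (0.0224) but not by edgeR (0.0658).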

How the data were processed

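Bulk RNA of EpCAM-positive tumor cells was measured in 8 libraries, 1 per mouse. The study's methods name the TruSeq RNA v2 library protocol and give no strand setting for counting, so reads from opposite strands of a locus may not be told apart. The authors aligned reads with Subread and counted them per RefSeq gene with featureCounts, and the deposited counts are whole numbers without normalization. The deposited log2 values were made by the authors with voom and quantile normalization, scaled to gene length (RPKM). The submitters' processing notes name featureCounts, limma, GRCm38 and mm10.

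Columns were matched to samples by mouse number, and 6 further count columns, matching none, were set aside. Entries without a gene name (1277, 0.552% to 0.789% of a library's counts) and 762 pseudogenes were left out of the test. The main comparison used edgeR 4.0.16 under R 4.3.3, a quasi-likelihood test with TMM scaling, over genes with more than 0.5 CPM in at least 6 libraries. P-values were adjusted by Benjamini-Hochberg and called at 0.05. It was set beside DESeq2 1.42.0, limma 3.58.1, other scaling, other filters, blocks and leaving out each library. The standard error is the size of the log2 fold change over the root of F. The 95% intervals rest on the t distribution with the degrees of freedom of the fit. Isoenzyme ratios were compared by an exact permutation test on the deposited log2 values with adjustment over 7 ratios. Scripts were tested on simulated data with 4 libraries a group. There edgeR recovered 9.38% of the genes set to change 1.5-fold, 46.0% at 2-fold and 85.5% at 4-fold. DESeq2 recovered 23.4%, 65.1% and 91.9%. Among genes set not to change, edgeR made 4 false calls, limma-voom 6 and DESeq2 29, so a call by DESeq2 alone is weaker evidence. Plots were made with Python 3.11.15 and matplotlib 3.10.9.

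The 31 members and the other gene lists were chosen with earlier results of these data known. All 31 members could be named, and from each other list every called gene was named, or the 2 most abundant if the list had none. Slc16a3 and Wwtr1 were named outside that rule.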

Additional observations from a re-analysis of the deposited data

Results flagged for a closer look

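In 76 groups of 4 values (the CPM of 31 members and 7 isoenzyme ratios, in each group), 1 held a library far from the others by Dixon's criterion, where chance alone flags about 1 in 20 groups. Pdha1, the catalytic subunit of pyruvate dehydrogenase, had 258 CPM in Yap1KO replicate 2, while the other Yap1KO libraries lay between 288 and 292 CPM. Without that library the Pdha1 log2 fold change was -0.12, and it was not called (edgeR adjusted p = 0.543).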

How the results depend on the processing

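Galm was called lower in Yap1KO under all 8 alternatives besides leaving out a library and in all 8 fits without 1 library. DESeq2 called 5 members lower (Galm, Slc16a1, Pfkp, Pfkfb2 and Tkt), and over all genes 587 lower and 858 higher, against 316 and 476 by edgeR, with 4 other pathway genes higher against 2. Without a filter on low counts 0 members were higher, since Bpgm had an adjusted p of 0.0566. Limma-trend on the deposited log2 values called 2 other pathway genes lower against 4, and gave Gapdh a log2 fold change of -0.0032. The labels do not say that the replicate numbers pair the mice. The deviations of same-numbered libraries correlated at 0.04, 0.33, 0.04 and 0.14, which cannot settle whether they do. With the replicate number as a block, 2 members were higher (Bpgm, and Aldoc with an adjusted p of 0.0119), 552 genes were lower and 755 higher, and 4 other pathway genes were higher. Fbp2 was called lower with that block (adjusted p of 0.0286) and also with a term for the mouse series (0.0499). The cause of these differences was not tested.

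Without 1 library, 1 to 2 members were lower and 0 higher, 2 to 3 other pathway genes lower and 0 to 3 higher, and 156 to 292 of all genes lower and 241 to 481 higher. The sign of 9 uncalled members turned in such fits, whose log2 fold changes ran from -0.0628 to 0.0915 for Slc2a1, -0.0653 to 0.202 for Galt, -0.0392 to 0.17 for Pfkfb3, -0.0711 to 0.0138 for Aldoa, -0.0695 to 0.164 for Gapdh, -0.0216 to 0.119 for Pgk1, -0.113 to 0.0013 for Pgam1, -0.168 to 0.0823 for Pdk2 and -0.0157 to 0.224 for Pck2. The ratio differences ran from -0.0603 to 0.178 for Hk2 to Hk1 and from -0.115 to 0.342 for Ldha to Ldhb. With 4 mice a group, differences of the size seen for Pfkfb2 or Tkt fall on either side of the threshold with the tool used. The lowest count of any member in any library was 223.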
